A study of Gallus gallus with 6 samples.

Results

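MYT1, MYT1L and ST18 make up the Myt family of zinc finger transcription factor genes. They are 3 of the 13009 genes with a probe set of their own on chick neural tube arrays, and were read by 8 of the 38439 probe sets tested, of which 27168 carried a single gene symbol. Taken were the probe sets annotated with the symbol of 1 family gene and no other, which gave 5 for MYT1L, 2 for MYT1 and 1 for ST18. No probe set with several symbols included a family gene. The family was chosen by the log2 fold change of ST18, which was among the deepest falls in the same comparison, so that the differences between groups below are a description and carry no test.

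The arrays compared 3 samples of Tubb3::CAG:TcfEnR cells with 3 samples of Tubb3::CAG:control cells, from wild-type White-Leghorn embryos. TcfEnR fuses the DNA-binding HMG box of Tcf3 with the engrailed repressor, and was made from a vector that also encodes membrane GFP. Control cells received the GFP vector alone. In both groups a second plasmid carried Cre recombinase under a TUBB3 enhancer and a TK minimal promoter. It was meant to release expression from the floxed stop only in cells with that enhancer active, and the paper reports low leakage. Electroporation was at embryonic day 3, and 24 h later, at day 4, neural tubes of several embryos were pooled for each replicate, dissociated and sorted for GFP. RNA was amplified and hybridized to the GeneChip Chicken Genome Array, and each value is a log2 signal made by RMA, a method that corrects background, normalizes arrays to each other and summarises the probes of a probe set.

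Myt family proteins bind DNA through clusters of CCHC zinc fingers and are known chiefly from differentiating neurons. In Xenopus, MYT1 promotes neuronal differentiation together with proneural bHLH factors and makes cells less sensitive to inhibition by Notch. In mouse, MYT1L converts fibroblasts to neurons together with other transcription factors and represses genes of other cell types, and ST18 has also been studied in pancreatic endocrine cells. Co-repressors with histone deacetylases are among the partners of these proteins.

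The array median was 6.93 throughout. The 5th percentile, near which signals carry little information, was 3.38 to 3.39 in TcfEnR arrays and 3.24 to 3.30 in control arrays. The bright ends of the arrays were not matched. The brightest 5% of probe sets began at 10.16 to 10.21 in TcfEnR arrays and at 10.49 to 10.52 in control arrays, without overlap. Results with quantile normalization repeated across the arrays are given further below. Arrays of 1 group correlated at 0.978 to 0.991 across probe sets, and arrays of different groups at 0.888 to 0.917. The mean log2 difference between the 3′ and 5′ ends of 3 control transcripts, a sign of RNA quality, was 0.30 to 0.33 in TcfEnR arrays and 0.22 to 0.34 in control arrays, so that the groups overlapped. In control arrays the 12 measured pan-neuronal markers had a mean log2 level of 10.07 to 11.09, and 13 progenitor and 8 cell cycle markers were also well above the bottom of the range, at 10.17 to 10.62 and 9.90 to 10.67. Having 3 arrays a group limited precision.

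The 3 family genes were all lower in TcfEnR cells, by unequal amounts. ST18 was lower by 4.55 on the log2 scale, or 23.5-fold, MYT1L by 2.99, or 7.95-fold, and MYT1 by 1.43, or 2.70-fold, each by its brightest probe set. All 8 probe sets were lower at an adjusted p of 0.05 by limma, as were 26.2% of all tested probe sets. Of the 8, 5 also passed the 4-fold threshold of the study, as did 2.96% of all. Probe sets of a gene share its RNA and are not replicates. By gene, 2 of 3 passed 4-fold, among them ST18, for which the family was chosen, and no share over all genes was counted. Such counts are therefore a description. In all 8 every TcfEnR array lay below every control array, which held for 30.2% of all tested probe sets. The median log2 fold change over the 8 probe sets was −2.67, and it was 0.02 over all tested probe sets.

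**Figure D1:**
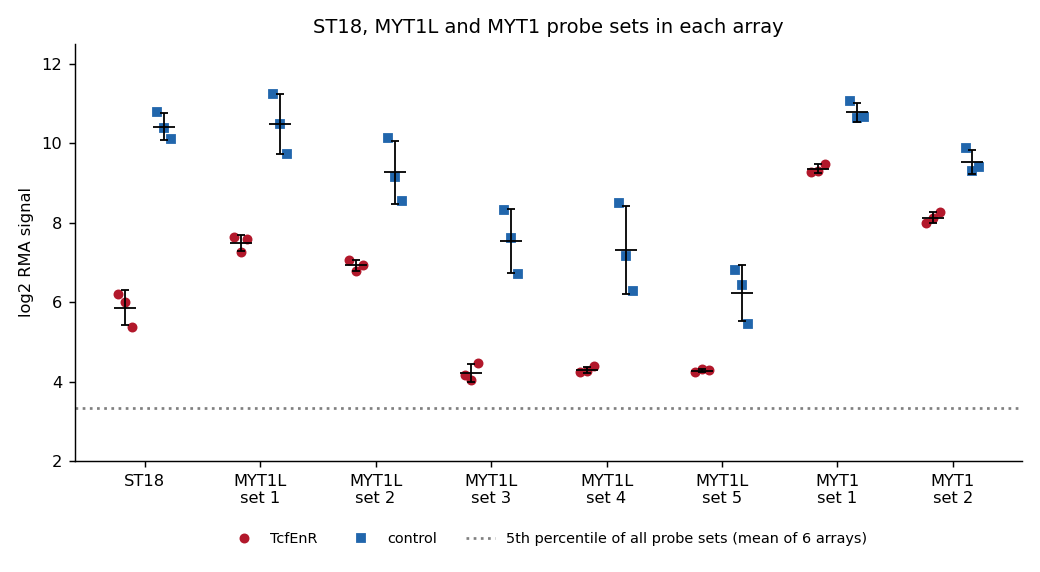
Log2 RMA signal of the 8 probe sets in each array, with TcfEnR (circles) left of control (squares); black bars are the mean and SD of 3 arrays, and the dotted line is the 5th percentile of all probe sets. Probe sets of a gene are numbered from the brightest in control cells. In each of the 8, every TcfEnR array lies below every control array, and 3 MYT1L probe sets come close to the dotted line in TcfEnR arrays.

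The log2 signal of ST18 was 6.20, 6.01 and 5.38 in TcfEnR replicates 1, 2 and 3, against 10.78, 10.37 and 10.11 in control replicates 1, 2 and 3. The lowest control array was 3.90 above the highest TcfEnR array. Group means were 5.86 ± 0.43 in TcfEnR cells and 10.42 ± 0.34 in control cells (SD, n = 3 each), with a log2 fold change of −4.55 (SE 0.24). Among 13009 genes, each followed through its brightest probe set, ST18 was in place 5 by depth of the fall. The TcfEnR mean was still 2.48 above the 5th percentile, so it did not lie at the bottom of the scale. A single probe set read this gene, so that no second one could be set beside it.

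MYT1L, the member known for its use in making neurons from fibroblasts, had 5 probe sets that shared a direction and differed in size. The brightest was at 7.64, 7.27 and 7.58 in TcfEnR replicates 1, 2 and 3, against 11.25, 10.49 and 9.72 in control replicates 1, 2 and 3. The groups did not overlap, and the control arrays were spread more widely than the TcfEnR arrays. Means were 7.50 ± 0.20 in TcfEnR cells and 10.49 ± 0.76 in control cells (SD, n = 3 each), with a log2 fold change of −2.99 (SE 0.33). MYT1L was in place 121 of 13009 genes by depth of the fall.

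The other 4 MYT1L probe sets had log2 fold changes of −1.95 to −3.32. The next brightest averaged 6.92 ± 0.14 in TcfEnR cells and 9.27 ± 0.80 in control cells (SD, n = 3 each). The remaining 3 had TcfEnR means of 4.22 to 4.30, only 0.84 to 0.92 above the 5th percentile, so that the size of their falls is limited by the scale. The smallest fall of the 5, −1.95 (SE 0.30) was that of the dimmest in control cells, at 6.23 ± 0.71 (SD, n = 3), and it alone missed the 4-fold threshold. The mean of the 5 log2 fold changes was −2.73.

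MYT1, the founding gene of the family, changed least of the 3. Its brighter probe set was at 9.27, 9.30 and 9.49 in TcfEnR replicates 1, 2 and 3, against 11.06, 10.64 and 10.66 in control replicates 1, 2 and 3. The TcfEnR arrays stayed 5.97 above the 5th percentile on average, which leaves a strong signal in these cells. The log2 fold change was −1.43 (SE 0.16) by this probe set and −1.40 (SE 0.17) by the other, so both read nearly the same change. Neither reached 4-fold. MYT1 was in place 922 of 13009 genes.

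**Figure D2:**
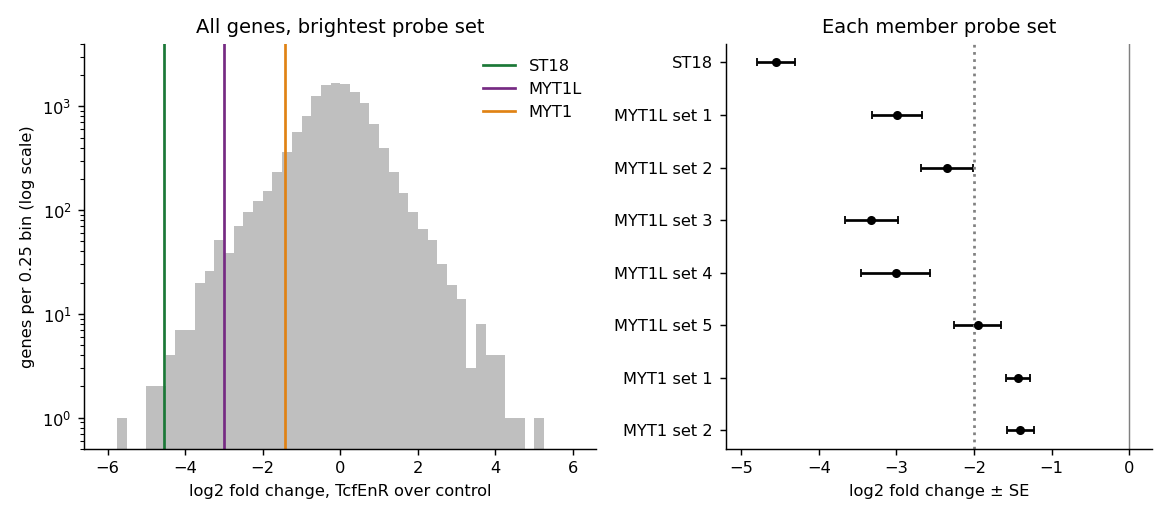
Left, the number of genes per 0.25-wide bin of log2 fold change of TcfEnR over control (log scale), with the brightest probe sets of ST18, MYT1L and MYT1 as vertical lines at −4.55, −2.99 and −1.43. Right, the log2 fold change and SE of each of the 8 probe sets, with 4-fold as a dotted line; the 5 MYT1L probe sets run from −1.95 to −3.32, and the MYT1 probe sets lie at −1.43 and −1.40.

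The falls were next set beside those of general neuronal markers, since a sorted sample that holds fewer neurons and neurons that hold less RNA of a gene cannot be told apart in these bulk arrays. Of 12 measured pan-neuronal markers, 11 were lower, beside 32.6% of all genes, and GAP43 did not pass (log2 fold change 0.20). The GAP43 probe set was dim, at 5.25 to 5.42 in control arrays, below the array median of 6.93. The mean level of the 12 markers was 8.20, 8.09 and 8.08 in TcfEnR replicates 1, 2 and 3. It was 11.09, 10.75 and 10.07 in control replicates 1, 2 and 3, a difference of −2.51. The falls of ST18 and of MYT1L by its brightest probe set were deeper than that mean difference, and the fall of MYT1 was smaller. The 11 lower markers ran from −4.27 for STMN2 to −1.27 for SNAP25, so that MYT1L and MYT1 lay within their range and ST18 just beyond it. MYT1 was within it only through SNAP25, as the next marker, CRMP1, was at −1.56. Of 7 SNAP25 probe sets 2 were lower. The SNAP25 call was lost with quantile normalization repeated (adjusted p = 0.0512 by limma). It was also lost without TcfEnR replicate 1 or 2 or control replicate 2 (adjusted p = 0.0610, 0.0688 and 0.0620 by limma).

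Relative to that mean in the same array, ST18 was lower still in TcfEnR cells by 2.04, and MYT1L by 0.48. MYT1 was higher by 1.08. Only such differences between groups can be read on this scale, because signals of different probe sets are not comparable as levels. For ST18 and MYT1 no TcfEnR array overlapped the control arrays on this relative scale, but the share of all genes for which this held was not counted. The marker mean itself differed by −2.51, so a gene that changed little would also stand higher in TcfEnR cells here. ST18 was chosen for its deep fall, so its place on this scale is a description. For MYT1L the sign depended on the probe set, with values of −0.81 to 0.56 over its 5 probe sets, and no direction relative to the markers can be given for it.

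The control arrays differed among themselves in the level of neuronal markers. MYT1L was highest in control replicate 1 and lowest in control replicate 3, as were STMN2 and DCX, which encode regulators of neuronal microtubules, TUBB3 and the RNA-binding protein gene ELAVL4. STMN2 was at 12.40, 11.59 and 10.48 in control replicates 1, 2 and 3. The range over the control arrays was 1.53 for MYT1L and 1.93 for STMN2, against 0.67 for ST18 and 0.42 for MYT1. ST18 had the same highest and lowest arrays, whereas MYT1 was highest in replicate 1 and lowest in replicate 2, with 10.64 there and 10.66 in replicate 3.

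The progenitor genes SOX2, PAX6 and FABP7 ran the other way, with their highest signal in control replicate 3, whereas VIM did not. SOX2 was at 10.18, 10.26 and 11.22 in control replicates 1, 2 and 3. With 3 arrays these orders are a description. The SD of MYT1L among control arrays, 0.76, was reached or passed by 2.06% of the 13009 genes, whereas 19.0% reached that of ST18 and 37.2% that of MYT1. Among TcfEnR arrays the SD of ST18, 0.43, was reached by 1.73% of genes, and replicate 3 was the low array.

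**Figure D3:**
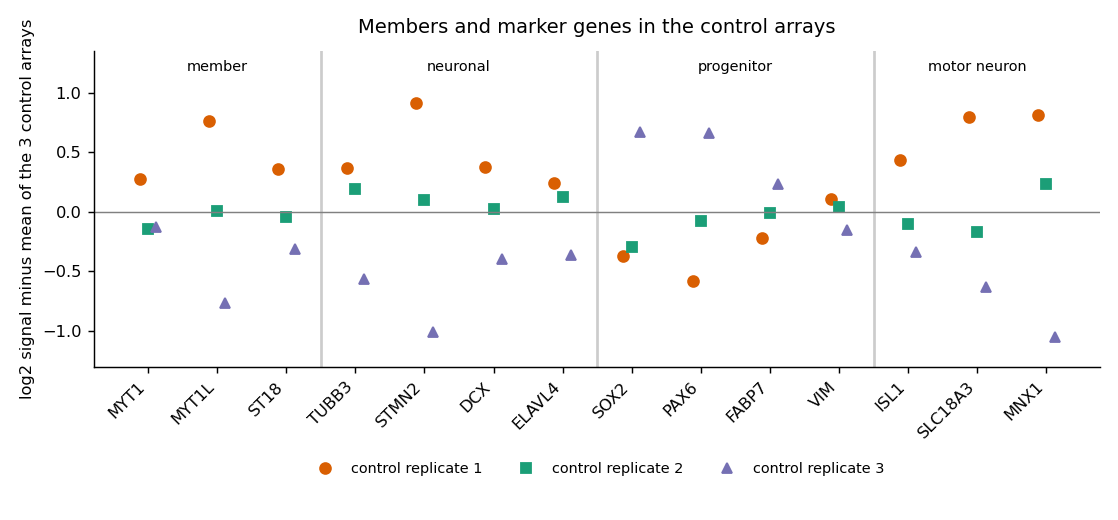
Log2 signal of the family genes and of neuronal, progenitor and motor neuron markers in the 3 control arrays, each minus the mean of the 3 (vertical axis, log2 units). MYT1L spans 1.53 and STMN2 1.93 with replicate 1 highest and replicate 3 lowest, whereas SOX2 and PAX6 are highest in replicate 3.

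Genes whose 6 values most resembled those of each family gene were found by the root mean square difference of signals centred on their own mean over the 6 arrays. For MYT1L the 5 nearest of 13009 genes were CBLN1, a synapse organiser, BTBD8, CACNA2D1, a calcium channel subunit, GRIA2, an AMPA receptor subunit, and PTPRG, a receptor tyrosine phosphatase, at 0.058 to 0.16 log2 units. CBLN1 was at 7.48, 6.96 and 7.32 in TcfEnR replicates 1, 2 and 3, against 10.99, 10.14 and 9.43 in control replicates 1, 2 and 3, and so had the same low array among TcfEnR replicates and the same order among control replicates as MYT1L.

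For ST18 the 5 nearest were TFAP2B, a transcription factor gene of neural crest and of some dorsal interneurons, SLIT2, a secreted guidance ligand, ISL1, a LIM homeobox factor of motor neurons and dorsal interneurons, PXYLP1 and ALCAM, an adhesion molecule. They were more distant, at 0.30 to 0.35 log2 units. For MYT1 they were APC, a scaffold of the β-catenin destruction complex, AFF2, CFLAR, an inhibitor of caspase activation, ANKRD50 and USP3, a deubiquitinase, at 0.031 to 0.064.

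The family genes were not among each other's nearest genes. From ST18, MYT1L was in place 105 and MYT1 in place 875, and from MYT1L, ST18 was in place 761 and MYT1 in place 729. From MYT1, MYT1L was in place 8431 and ST18 in place 12680. MYT1L and ST18 differed by 0.87 log2 units, MYT1 and MYT1L by 0.86, and MYT1 and ST18 by 1.60. As the measure uses the size of a change as well as its shape, genes with other falls count as distant. Likeness over 6 arrays in 2 groups says nothing of shared control.

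**Figure D4:**
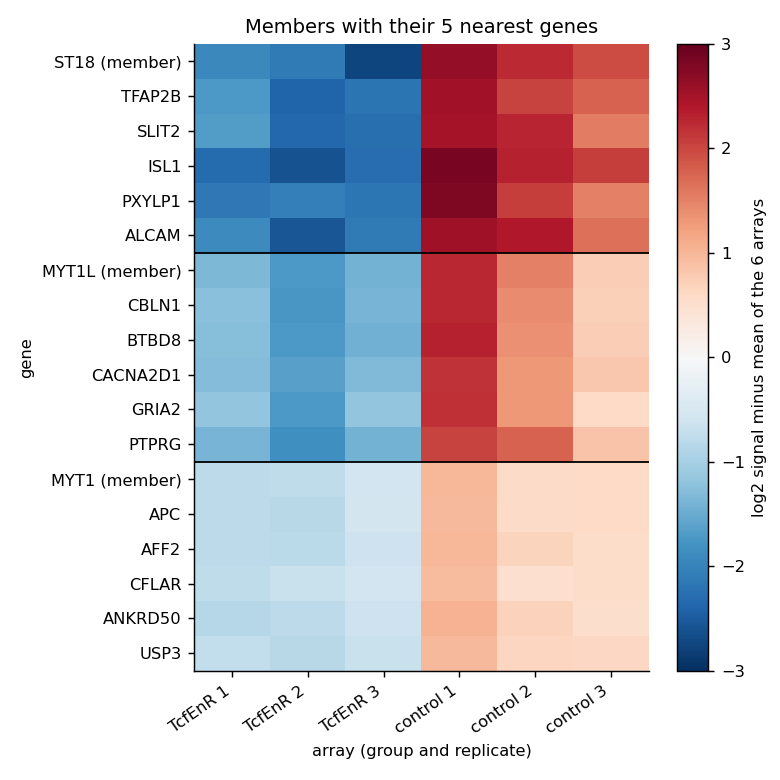
Log2 signal minus the mean of the 6 arrays for ST18, MYT1L and MYT1 and the 5 genes nearest to each (rows), in the TcfEnR arrays (left) and control arrays (right). Among the control arrays, MYT1L and the 5 genes nearest to it are highest in replicate 1 and lowest in replicate 3. Over all 6 arrays, ST18 has its lowest value in TcfEnR replicate 3, as does 1 of its 5 nearest genes.

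Genes that act with or around the Myt family were counted from fixed lists, beside all 13009 genes, of which 32.6% were lower and 25% higher by limma, with a median log2 fold change of −0.09. Of 8 measured proneural and related bHLH factors, 6 were lower and none higher, with a median of −1.26. NEUROG2, a proneural factor that starts neuronal differentiation, was at 5.08, 5.14 and 5.47 in TcfEnR replicates 1, 2 and 3, against 6.44, 7.11 and 6.77 in control replicates 1, 2 and 3. NHLH2, a bHLH gene of young neurons, had a log2 fold change of −2.60 (SE 0.20), although its other probe set stood at −0.01. NEUROD1 had −1.59 (SE 0.46) and NEUROG1 −1.37 (SE 0.25). A dimmer probe set of NHLH1 went against its brightest. ATOH1, at −0.19, and NEUROD4, at −0.14, did not pass. POU3F2, a partner of MYT1L in mouse reprogramming, was not analysed here, since no probe set carried its symbol alone.

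Among 4 measured genes of other reprogramming mixes all 4 were lower, with a median of −2.01. ISL1 had a log2 fold change of −4.80 (SE 0.20) and ZIC1, a zinc finger gene of the dorsal neural tube, −2.43 (SE 0.19). The call for NEUROD1, which is on both lists, ended without TcfEnR replicate 2 or 3 (adjusted p = 0.0592 and 0.0547 by limma). LHX3, at −0.66, lost its call without TcfEnR replicate 1 or control replicate 1 (adjusted p = 0.0873 and 0.0667 by limma).

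Of 23 measured genes of the Notch pathway, which MYT1 counters in Xenopus, 14 were lower and 1 was higher, with a median of −0.62. HES6, which antagonises other Hes proteins and favours differentiation, fell to 7.66, 7.30 and 7.24 in TcfEnR replicates 1, 2 and 3, against 11.02, 10.44 and 11.00 in control replicates 1, 2 and 3. Log2 fold changes were −2.03 (SE 0.17) for the Notch ligand gene JAG1 and −1.77 (SE 0.35) for DNER, a Notch-related ligand gene. HES5, a Notch effector that holds progenitors undifferentiated, was at 11.82, 9.31 and 9.29 in TcfEnR replicates 1, 2 and 3, against 12.48, 12.07 and 12.75 in control replicates 1, 2 and 3, so that 1 TcfEnR array stood near the control arrays.

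The gene that rose was HES4, a Hairy-type repressor, with 12.09, 12.05 and 12.10 in TcfEnR replicates 1, 2 and 3, against 10.29, 10.31 and 10.23 in control replicates 1, 2 and 3. Its log2 fold change was 1.80 (SE 0.12) by this probe set and 1.55 by the other. The receptor gene NOTCH1 had −0.26 (SE 0.24) and did not pass. With quantile normalization repeated across the arrays, 11 Notch genes were lower and 3 higher, beside 25.1% lower and 27.5% higher among all genes under that setting, and NOTCH1 stood at 0.03.

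Of 17 measured genes of co-repressor complexes, 9 were lower and none higher, with a median of −0.49 and no fall past 4-fold. Log2 fold changes were −1.22 (SE 0.16) for the histone-binding gene RBBP7, −1.19 (SE 0.18) for the Sin3 complex subunit gene SAP30, −1.17 (SE 0.14) for MTA3, of the NuRD complex, and −1.02 (SE 0.13) for the deacetylase gene HDAC2. The demethylase gene KDM1A, at −0.54, passed, whereas SIN3B (0.08), HDAC1 (0.27) and REST (0.27), a repressor of neuronal genes in other cells, did not. Other probe sets differed in call, since 2 of 4 for HDAC1 were higher (up to 0.72) and 1 of 2 for SIN3B was lower (−0.71). This picture depended on scaling. With quantile normalization repeated, 5 of the 17 were lower and 2 higher, beside the same 25.1% and 27.5% of all genes. The 2 were HDAC1 and REST, at 0.55 each, and KDM1A no longer passed (adjusted p = 0.0714 by limma).

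**Figure D5:**
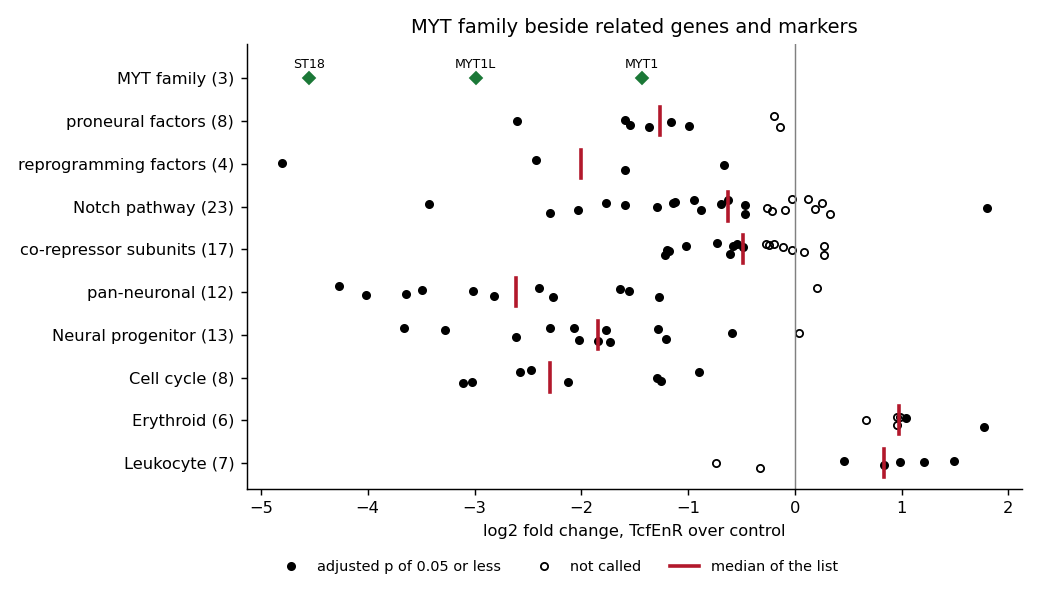
Log2 fold change of TcfEnR over control for the 3 family genes (diamonds) and for each measured gene of related lists and marker lists (circles, filled where the adjusted p was 0.05 or less); red bars are list medians and the number of genes is in brackets. Among the lists shown, medians run from −2.61 for pan-neuronal markers to 0.97 for erythroid markers. Some marker lists are not shown, among them motor neuron markers, whose median was deeper, at −3.52.

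Marker lists of other cells were counted in the same arrays, where 32.6% of all 13009 genes were lower and 25% higher. Of 7 leukocyte markers, 5 were higher, with a mean level of 6.50 to 6.68 in TcfEnR arrays and 5.95 to 6.06 in control arrays. Of 6 erythroid markers, 2 were higher. The mean of the 6 was 10.98, 11.94 and 8.27 in TcfEnR replicates 1, 2 and 3, and 9.02 to 9.86 in control arrays. Without TcfEnR replicate 3, the low array, HBA1, HBAD, HBBR and HBZ were called higher too, at 2.14 to 2.50. All 7 motor neuron markers were lower, at 5.67 to 5.85 in TcfEnR arrays and 8.05 to 9.66 in control arrays, and 12 of 13 progenitor markers were lower, at 8.30 to 8.66 in TcfEnR arrays and 10.17 to 10.62 in control arrays. All 5 neural crest markers were lower, at 6.43 to 6.63 in TcfEnR arrays and 8.56 to 8.84 in control arrays, and all 8 cell cycle markers, at 8.09 to 8.36 in TcfEnR arrays and 9.90 to 10.67 in control arrays. Other lists were mixed or mostly not called. Of 10 mesenchyme markers 2, COL1A2 and COL3A1, were lower and none higher, and of 8 endothelial markers 1 was lower and 2 higher. Over all probe sets of these genes, 2 of 8 were lower and 1 higher for COL1A2. For COL3A1 4 of 6 were lower and 1 higher. Without control replicate 3, the control array with the lowest mesenchyme mean, TWIST1, DCN, LUM and FOXC2 were called lower too, at −1.55 to −2.63. So were the endothelial markers CDH5 (−0.63) and TEK (−0.93). Of 6 oligodendrocyte lineage markers 3 were lower and 2 higher, and of 3 enteroendocrine or islet markers 1 was lower and 2 higher. The part of any of these lists in the falls of ST18, MYT1L and MYT1 was not tested.

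The family genes sit among related neighbours in the RefSeq annotation of the GRCg7b assembly, used here only for gene order. PCMTD2 and NPBWR2 lie near MYT1 and their paralogs PCMTD1 and NPBWR1 near ST18. SNTG2 lies near MYT1L and SNTG1 near ST18, and the peroxidasin genes PXDN and PXDNL lie near MYT1L and MYT1. Of the 18 protein-coding genes within 3 places of a family gene, 14 were measured, of which 3 were lower and 5 higher, beside 32.6% lower and 25% higher among all genes. The neighbours of ST18, PCMTD1 and RB1CC1, had log2 fold changes of 0.27 and 0.12 and did not pass, although another of the 4 RB1CC1 probe sets was called lower (−0.46).

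SNTG1, a syntrophin gene, was 1 place further on and had −1.42 (SE 0.22). Beside MYT1L, PXDN had −1.50 (SE 0.17) and TSSC1 −0.51 (SE 0.14). Beside MYT1, PCMTD2 had 0.52 (SE 0.18), a call lost without control replicate 3 or TcfEnR replicate 1 or 3 (adjusted p = 0.0934, 0.0955 and 0.123 by limma) or with replicate number as a block (adjusted p = 0.0675), PXDNL 0.56 (SE 0.12) and the tyrosine kinase gene PTK6 2.07 (SE 0.18). PTK6 was at 8.40, 8.90 and 8.53 in TcfEnR replicates 1, 2 and 3, against 6.27, 6.79 and 6.55 in control replicates 1, 2 and 3, and went opposite to MYT1. Also called higher were LOC419250, next to MYT1, at 1.68 (SE 0.21), and NPBWR1, near ST18, at 0.50 (SE 0.13). NPBWR1 was at 3.06, 3.12 and 3.18 in TcfEnR replicates 1, 2 and 3, against 2.64, 2.76 and 2.44 in control replicates 1, 2 and 3. All these values lay at the bottom of the scale, where signals carry little information. NPBWR1 is counted among the higher neighbours, but no rise can be read from it.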

How the data were processed

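The authors deposited log2 values made by RMA for 38535 probe sets on 6 arrays; the software version is not given in the sources used here. No further transformation was applied. The array's own 96 controls were dropped. Symbols came from the annotation of the array, and each gene was followed through the brightest, averaged across the 6 arrays, of the probe sets naming it alone. TcfEnR minus control was fitted for all 38439 probe sets with limma 3.58.1 in R 4.3.3 (empirical Bayes, Benjamini-Hochberg over all probe sets, adjusted p of 0.05, with 4-fold as a second threshold). The SE is the moderated one. The code was tested on simulated data. The family and gene lists were chosen with earlier results of these data known. Genes named were the family, its 5 nearest genes each and a fixed set of markers. Up to 4 called genes per list with the largest change were also named. Neighbours by gene order were added later. Some further list genes, among them DNER, ATOH1, NEUROD4, NHLH1, GAP43, PAX6 and VIM, were named outside these rules. Alternatives were quantile normalization repeated, median centring, a filter on dim probe sets, a variance trend, a replicate block, leaving out each array, and other probe sets. The planned description of protein and promoter sequence was not run, as no sequence was used here.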

Additional observations from a re-analysis of the deposited data

How the results depend on the processing

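As a description of values that the choice of the family used, log2 fold changes over the alternatives were −4.31 to −4.72 for ST18, −2.61 to −3.37 for MYT1L and −1.13 to −1.50 for MYT1. The fall of MYT1L was smallest without control replicate 1 and deepest without control replicate 3. Of the 8 probe sets, 4 to 6 passed 4-fold when 1 array was left out. Quantile normalization repeated moved the median of all genes from −0.09 to 0.03. Relative to it MYT1 was at −1.16, MYT1L at −2.82 and ST18 at −4.47. It gave 3 Notch genes higher, and 5 co-repressor genes lower and 2 higher. Leaving out 1 array gave 0 to 1 co-repressor genes higher, 10 to 14 Notch genes lower and 4 to 6 proneural genes lower. The replicate block cannot change a log2 fold change here, as each replicate number holds 1 array of each group. Nor can the filter on dim probe sets or the variance trend. The block took the call from PCMTD2. Deviations of same-numbered arrays correlated at −0.055 to 0.016, and those of differently numbered arrays of the 2 groups at −0.105 to 0.140. With 3 arrays a group these values cannot decide whether same-numbered arrays share more than a number. By Pearson correlation in place of distance, the 5 nearest genes shared 2 with the list of MYT1, 3 with that of MYT1L and 0 with that of ST18. Signal above the 5th percentile limits 3 MYT1L probe sets.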
